A study of Mus musculus with 30 samples.

Results

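The genes described here are 10 sensors, adaptors and effectors of the response to double-stranded RNA and cytosolic DNA, namely Ddx58, Ifih1, Dhx58, Mavs, Tmem173, Mb21d1, Eif2ak2, Adar, Samhd1 and Trex1. They were chosen by name, and each was matched by its Ensembl identifier to 1 of 54146 genes in the count table, where all 10 were found and all 10 passed the filter on low counts in every comparison. RNA-seq was done on the mouse macrophage-like line J774A.1, as 5 clones that were each grown from a single cell. The 2 KO clones (KO1 and KO2) carry a homozygous CRISPR deletion of the B2_Mm2 transposable element in intron 1 of Dicer1, and the 3 WT clones (WT1, WT2 and WT3) were isolated without electroporation, so the editing procedure and the genotype cannot be told apart. Each clone was left untreated (UT) or given interferon-gamma (IFNG) at 100 ng/mL over 4 h, with 3 libraries for each clone and treatment and 30 in all.

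RIG-I (encoded by Ddx58) and MDA5 (Ifih1) are helicases that recognize viral or other unusual double-stranded RNA in the cytosol, and LGP2 (Dhx58) is a related helicase that lacks the signalling domains of the other two and modulates them. They signal through MAVS, an adaptor on mitochondria, to induce type I interferons. cGAS (Mb21d1) binds double-stranded DNA in the cytosol and makes a cyclic dinucleotide that activates STING (Tmem173). PKR (Eif2ak2) is a kinase that is activated by double-stranded RNA and blocks translation. ADAR1 (Adar) edits double-stranded RNA, SAMHD1 degrades deoxynucleotides and TREX1 degrades cytosolic DNA, and loss of each of these 3 is known to provoke a type I interferon response. DICER, the product of Dicer1, cuts double-stranded RNA into small RNAs. Most genes of this set are known interferon-stimulated genes in macrophages.

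Levels are given as CPM (fragments of a gene relative to all fragments counted in the library), scaled between libraries with TMM factors. Between 15566122 and 37992642 fragments were counted per library (median 23682133.5), and each of the 10 genes had at least 162 fragments in each library. IFNG took hold in every clone: Gbp2b, a guanylate-binding protein gene that IFNG induces, was at 1.91 to 3.70 CPM in the 15 untreated libraries and at 1076 to 1943 CPM in the 15 treated ones. The 9 macrophage markers checked (among them Adgre1, Csf1r, Lyz2 and Spi1) averaged at least 1 CPM, while the summed level of the T cell, B cell and epithelial markers never exceeded 0.217 CPM. The 3 fibroblast markers summed to 0.331 to 2.92 CPM, with Pdgfra averaging above 1 CPM, and the 2 endothelial markers to 1.37 to 3.25 CPM, with Cdh5 above 1 CPM, and their ranges overlapped between KO and WT. Cd8a, Krt8 and Krt18 had no count in any library. Libraries of a group differed beyond sampling noise in 30 of 30 pairs, and nothing states that they came from separate cultures, so p-values measure the spread between these libraries, which may be technical. In bulk RNA, fewer cells expressing a gene and less RNA per cell cannot be told apart.

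IFNG raised 9 of the 10 genes in each of the 5 clones and lowered Mavs in each of them. The changes were tested with edgeR's quasi-likelihood test, and a gene was called at a Benjamini-Hochberg adjusted p under 0.05 over all genes tested. Trex1 responded most, with a log2 fold change (log2FC) of 2.79 ± 0.11 (SE) in the 9 treated against the 9 untreated WT libraries. In the 6 against 6 KO libraries its log2FC was 2.94 ± 0.059. These pooled fits held no term for clone, so their standard errors include differences in level between clones. Samhd1 followed with 1.99 ± 0.060 in WT and 1.98 ± 0.031 in KO, and Mb21d1 rose least, by 0.49 ± 0.090 and 0.27 ± 0.039. The largest adjusted p among the 20 values of pooled WT and pooled KO was 0.00021, for Mb21d1 in WT.

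The share of all genes called sets the background for these counts. In pooled WT, 14.8% of the genes tested were called higher and 13.9% lower, and in pooled KO 15.8% and 14.8%. The share called in either direction was 21.2% in WT1, 34.5% in WT2, 36.1% in WT3, 29.4% in KO1 and 27.1% in KO2. The 10 genes had a median log2FC of 1.32 in pooled WT and 1.52 in pooled KO, and all genes tested had a median of -0.0028 and -0.0037. Of 13423 genes tested in pooled WT, 136 had a higher log2FC than Trex1, 225 than Samhd1 and 1106 than Mb21d1.

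**Figure D1:**
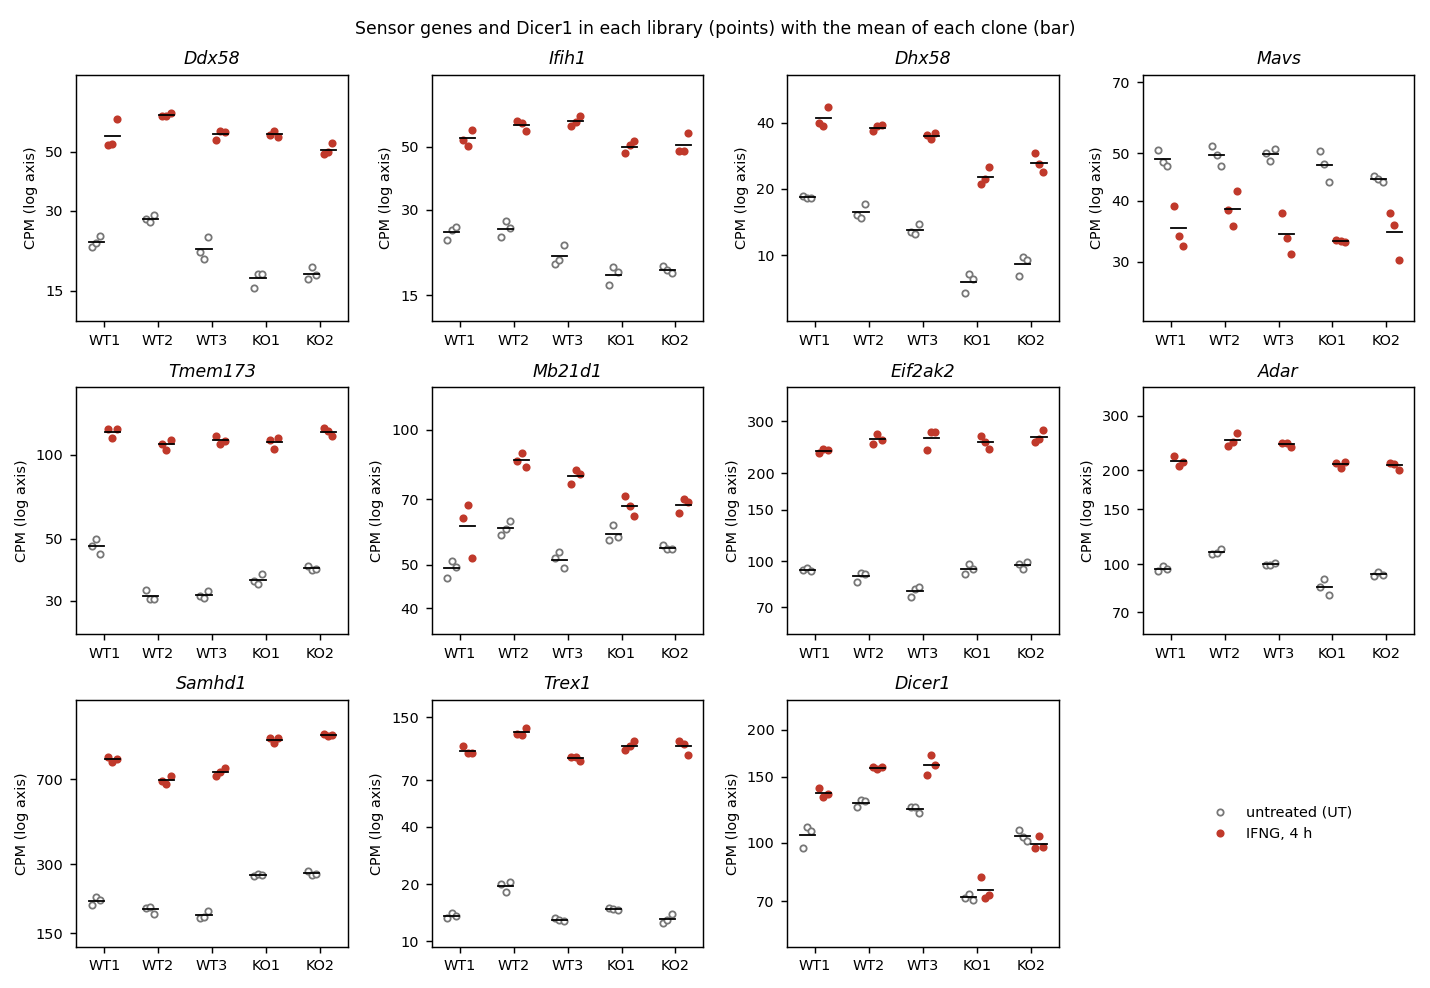
Level in CPM (log axis) of the 10 genes and of Dicer1 in each of the 30 libraries, for each clone untreated (open points) and after IFNG (filled points), with the mean of each group as a bar. The IFNG libraries lie above the untreated ones of their clone for every gene except Mavs, where they lie below, and Dicer1 in KO1 and KO2, where they overlap.

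RIG-I, MDA5 and LGP2 are the cytosolic RNA helicases. Ddx58 was at 19.8 to 28.99 CPM (median 23.9) in the 9 untreated WT libraries and at 52.9 to 69.9 CPM (median 59.9) in the 9 treated ones. In KO it went from 15.4 to 18.4 CPM (median 17.3) in the 6 untreated libraries to 49.1 to 59.9 CPM (median 55.4) after IFNG. Treated and untreated libraries did not overlap, with a log2FC of 1.36 ± 0.080 in WT (adjusted p = 4.2e-11) and of 1.69 ± 0.060 in KO (adjusted p = 1.5e-11).

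Ifih1 went from 19.4 to 27.3 CPM in untreated WT (median 24.1) to 50.2 to 64.0 CPM after IFNG (median 58.9). In KO it went from 16.2 to 19.02 CPM (median 18.3) to 47.5 to 55.6 CPM (median 49.4). The log2FC was 1.29 ± 0.069 in WT and 1.48 ± 0.052 in KO, again without overlap between treatments. Dhx58 had the lowest CPM of the 3 helicase genes. It went from 12.5 to 18.6 CPM (median 15.2) to 33.6 to 47.2 CPM (median 38.4) in WT, and from 6.71 to 9.84 CPM (median 8.17) to 21.04 to 29.1 CPM (median 24.5) in KO. Its log2FC was 1.29 ± 0.087 in WT and 1.56 ± 0.099 in KO.

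Mavs, the adaptor that serves the RNA helicases, was the only gene of the set to fall. It went from 47.0 to 51.8 CPM (median 49.7) in untreated WT to 31.1 to 41.8 CPM (median 35.5) after IFNG, and in KO from 43.6 to 50.6 CPM (median 44.6) to 30.2 to 37.7 CPM (median 33.1). In the fits it fell by 0.45 on the log2 scale in WT (SE 0.050, adjusted p = 5.2e-07) and by 0.42 in KO (SE 0.056, adjusted p = 3.3e-05). By clone its log2FC ran from -0.53 ± 0.062 in WT3 to -0.35 ± 0.059 in WT2, so the helicases and their adaptor changed in opposite directions in all 5 clones.

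On the DNA side, Tmem173 (STING) rose from 30.4 to 49.8 CPM (median 32.5) to 104.2 to 123.8 CPM (median 112.9) in WT, and from 34.3 to 39.98 CPM (median 37.9) to 104.9 to 124.2 CPM (median 115.5) in KO. Its log2FC was 1.64 ± 0.10 in WT and 1.64 ± 0.050 in KO. Mb21d1 (cGAS), which makes the messenger that STING binds, changed far less. It went from 46.7 to 62.6 CPM (median 51.6) to 51.9 to 88.8 CPM (median 79.5) in WT, where the ranges overlap, and from 54.1 to 61.4 CPM (median 56.0) to 64.0 to 71.0 CPM (median 68.2) in KO. Of the treated WT libraries, 1 of WT1 at 51.9 CPM lay within the untreated range, which WT2 extended to 62.6 CPM. In WT1 alone the log2FC of 0.30 ± 0.088 (adjusted p = 0.024) was no longer called in 4 of the 6 fits that left out 1 library, with 0.31 (adjusted p = 0.067) without untreated library 3, 0.27 (adjusted p = 0.098) without treated library 1, 0.26 (adjusted p = 0.11) without untreated library 1 and 0.22 (adjusted p = 0.12) without treated library 2.

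Eif2ak2, the PKR gene, went from 75.6 to 94.7 CPM (median 90.9) to 234.0 to 275.4 CPM (median 251.6) in WT and from 90.8 to 99.3 CPM (median 96.2) to 241.8 to 279.4 CPM (median 257.5) in KO. The log2FC was 1.54 ± 0.053 in WT and 1.45 ± 0.038 in KO. The ratio of treated to untreated means ran from 2.54 in WT1 to 3.32 in WT3.

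The 3 genes whose products limit the nucleic acids that can be sensed all rose. Adar went from 95.3 to 112.0 CPM (median 99.3) to 207.3 to 264.1 CPM (median 239.4) in WT and from 79.5 to 94.3 CPM (median 90.4) to 200.8 to 213.2 CPM (median 210.4) in KO, a log2FC of 1.21 ± 0.048 and 1.24 ± 0.043. The counts cover the whole gene, so the interferon-inducible and constitutive forms of ADAR1 were not separated. Samhd1 was the most abundant by CPM, at 175.2 to 216.6 CPM (median 194.2) in untreated WT and 666.6 to 875.9 CPM (median 750.3) after IFNG. In KO it was at 265.1 to 281.2 CPM (median 270.6) untreated and 1003 to 1098 CPM (median 1065) after IFNG.

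Trex1 went from 12.8 to 20.4 CPM (median 13.6) to 88.9 to 131.5 CPM (median 97.9) in WT and from 12.5 to 14.9995 CPM (median 14.3) to 94.9 to 112.8 CPM (median 107.0) in KO. All 1147 exon bases of Trex1 lie within exons of Atrip, a DNA damage response gene, on the same strand, and fragments over overlapping genes were counted for each gene. The value of Trex1 therefore cannot be told apart from Atrip transcripts that run through it. The count of Atrip, which includes the fragments over Trex1, rose by a log2FC of 2.03 ± 0.081 in WT clones and 2.12 ± 0.047 in KO clones. The fragments counted for Atrip beyond those of Trex1 stayed at 11.5 to 15.9 CPM in untreated and 12.1 to 17.7 CPM in treated libraries, with means of 14.3 and 14.996 CPM.

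**Figure D2:**
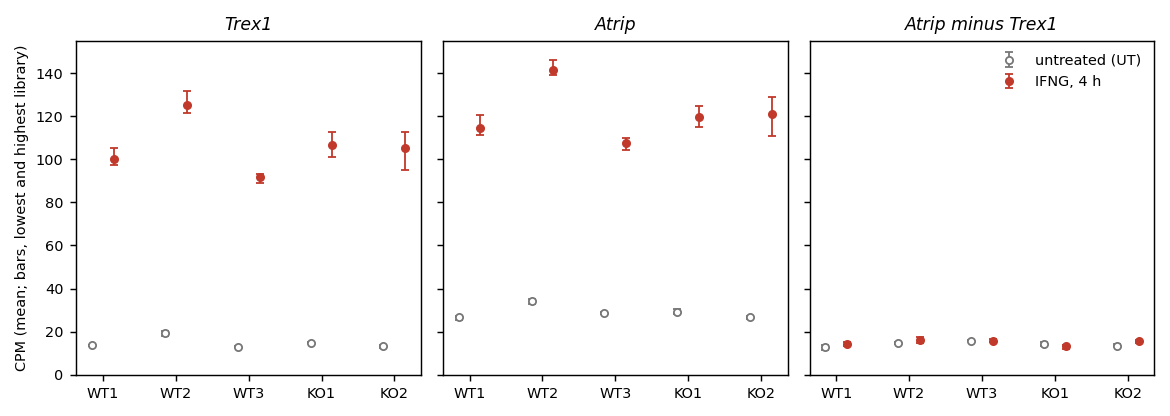
Level in CPM of Trex1, of Atrip, and of Atrip less Trex1 for each clone, untreated (open) and after IFNG (filled), with bars from the lowest to the highest of 3 libraries. The counts of Trex1 and Atrip, which share the fragments over Trex1, rose by a similar amount after IFNG. The difference between them stayed between 11.5 and 17.7 CPM in all libraries.

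Levels of different genes were compared per kilobase of exon (CPM per kb). The length sums all annotated exons of a gene and can exceed that of a single transcript, so the order depends partly on annotation. The values of Trex1 include fragments shared with Atrip. In untreated WT, Samhd1 stood highest at a mean of 21.1 CPM per kb, followed by Eif2ak2 (17.1), Tmem173 (15.8), Mavs (14.7), Trex1 (13.4), Mb21d1 (12.98) and Adar (12.6). The RNA helicases formed the bottom of the order, with Dhx58 at 4.80, Ddx58 at 3.43 and Ifih1 at 2.91 CPM per kb. The ranges of the libraries did not overlap between Samhd1 and Eif2ak2 or between Adar and Dhx58, and all other neighbours in the order overlapped. After IFNG, Trex1 at 92.2 and Samhd1 at 83.8 CPM per kb overlapped at the top in WT. Eif2ak2 (49.7) and Tmem173 (49.5) came next and overlapped each other, then Adar (29.01), which overlapped neither neighbour. Mb21d1 (18.2), Dhx58 (11.7), Mavs (10.7), Ddx58 (8.72) and Ifih1 (7.12) each overlapped the next. Mavs thus stood near the level of Tmem173 in untreated cells and near that of the RNA helicases after IFNG. In KO after IFNG, Samhd1 (116.1 CPM per kb) stood above Trex1 (92.4) without overlap, and Mavs (10.1) stood above Ddx58 (7.75) and Dhx58 (7.50), which overlapped each other.

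RefSeq promoter sequences (GRCm38.p6, 250 bases before to 50 after each annotated start) were available for 8 of the 10 genes, all but Dhx58 and Tmem173, with 11 annotated starts in all. They were searched on both strands for the letters TTCNNNGAA, the core of the gamma-activated site (GAS) through which interferon-gamma signalling acts, and GAAANNGAA, the core of the interferon-stimulated response element (ISRE) that IRF proteins bind. ISRE letters stood at 4 of the 11 starts, in Ddx58, Ifih1, Eif2ak2 and Adar, and GAS letters at 3, in Eif2ak2, Adar and Samhd1. Of 32851 mouse promoters of the same length, 8.56% held ISRE letters and 8.30% GAS letters. No match was found for Mavs, Mb21d1, Trex1, Dicer1 or the other two starts of Adar, which says only that these letters are not in these windows.

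The windows below hold the matches in capitals with up to 7 flanking bases, read 5′ to 3′ on the strand of the gene, and are shown because most lie within 50 bases of the transcript's start. Positions count from the annotated start, whose base is +1, to the leftmost base of the match. In Ddx58 (chr4:40239807-40239829, minus strand) the ISRE begins at 4 and reads on the opposite strand. Ifih1 has 1 at -112 on the opposite strand (chr2:62646352-62646374, minus strand) and 1 at 33 (chr2:62646208-62646230). Eif2ak2 has a pair of overlapping ISREs at 19 and 25 (chr17:78882533-78882561, minus strand) and a GAS at -178 (chr17:78882735-78882757). At 1 of its 3 starts, Adar has a GAS at 23 (chr3:89730733-89730755, plus strand), an ISRE at 34 (chr3:89730744-89730766) and another at -249. Samhd1 has a GAS at -235 (chr2:157135316-157135338, minus strand).
Ddx58 ISRE: aggcagtTTCGATTTCctatggc
Ifih1 upstream ISRE: attcgcgTTCCCTTTCctgtttc
Ifih1 downstream ISRE: gagaatcGAAACAGAAaccgatc
Eif2ak2 ISRE pair: ccgccggGAAAACGAAACAGAAgagaacc
Eif2ak2 GAS: cagagctTTCCCAGAAtggaagc
Adar GAS: aagccttTTCAAGGAAacgaaag
Adar ISRE: aggaaacGAAAGTGAActctggg
Samhd1 GAS: ccaccctTTCGGAGAAacacaag

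The 4 genes with ISRE letters had log2FC values of 1.21 to 1.54 in pooled WT. Samhd1, with GAS letters only, had 1.99, and Tmem173 (1.64) and Dhx58 (1.29) had no promoter sequence to search. Trex1, with none of these letters at either of its 2 starts, had the largest response of the set, and Mb21d1 and Mavs, also without them, had the smallest and the negative one.

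In untreated cells the RNA helicases were lower in KO than in WT clones, and Samhd1 was higher. Of the 10 genes, 5 were called lower (Ddx58, Ifih1, Dhx58, Mavs and Adar), against 14.4% of all genes tested, and 1 was called higher (Samhd1), against 12.2%. After IFNG, 3 were called lower (Ifih1, Dhx58 and Adar), against 13% of all genes, and Samhd1 was again called higher, against 10.9%. The median log2FC of the 10 genes was -0.13 untreated and -0.11 after IFNG, beside -0.00040 and 0.00097 over all genes tested.

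These tests take libraries as replicates, although they come from 5 clones. When counts were added up within clones, and 2 KO clones were set against 3 WT clones, 0 of the 10 genes were called by edgeR in either treatment, and 1 of 16189 genes in all was called untreated and 1 of 16197 after IFNG (1842 and 1824 at an unadjusted p under 0.05). The summed fold changes stayed close, with a log2FC of -0.90 for Dhx58 (adjusted p = 0.24), -0.50 for Ddx58 (adjusted p = 0.32) and 0.49 for Samhd1 (adjusted p = 0.24) in untreated cells. The WT clones themselves differed, with 9 of the 10 genes called among untreated WT1, WT2 and WT3 (all but Mavs, adjusted p = 0.89), where 59.5% of all genes tested were called. The summed level of the 9 macrophage markers was also higher in KO, at 7509 to 8524 CPM in untreated KO and 5449 to 7112 CPM in untreated WT libraries, and its part in these differences was not tested.

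Dhx58 showed the largest difference. In untreated cells its libraries were at 18.6, 18.3 and 18.2 CPM in WT1, at 15.2, 14.8 and 17.04 CPM in WT2, and at 12.7, 12.5 and 13.9 CPM in WT3. They were at 6.71, 8.25 and 7.82 CPM in KO1 and at 8.09, 9.84 and 9.54 CPM in KO2. Each of the 6 KO libraries lay below each of the 9 WT libraries, and the WT clones spread by a factor of 1.41 between the highest and lowest clone mean. The log2FC was -0.91 ± 0.11 (adjusted p = 2.4e-05), with -1.06 ± 0.14 in KO1 and -0.78 ± 0.14 in KO2.

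After IFNG the Dhx58 libraries of WT1 were at 39.7, 38.6 and 47.2 CPM, those of WT2 at 36.6, 38.4 and 38.8 CPM and those of WT3 at 34.9955, 33.6 and 36.1 CPM. Those of KO1 were at 21.04, 22.2 and 25.1 CPM and those of KO2 at 29.1, 25.9 and 23.9 CPM. The groups again did not overlap, and the log2FC was -0.63 ± 0.078 (adjusted p = 3.2e-05), with -0.74 ± 0.093 in KO1 and -0.54 ± 0.094 in KO2. Dhx58 and Samhd1 were the genes of the set that were called in both KO clones and both treatments.

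Ddx58 was at 21.9, 22.7 and 24.1 CPM in untreated WT1, at 27.9, 27.1 and 28.99 CPM in WT2 and at 21.02, 19.8 and 23.9 CPM in WT3. In KO it was at 15.4, 17.3 and 17.4 CPM in KO1 and at 16.6, 18.4 and 17.2 CPM in KO2, below every WT library. The log2FC was -0.50 ± 0.081 (adjusted p = 0.00028), called in KO1 (-0.54 ± 0.11, adjusted p = 0.0036) and in KO2 (-0.47 ± 0.11, adjusted p = 0.015). After IFNG the KO and WT libraries overlapped, with a log2FC of -0.17 ± 0.075 that was not called (adjusted p = 0.11). It was called without WT1 (-0.22, adjusted p = 0.015), where 5992 of 13382 genes tested were called. It was also called in 1 fit over all 30 libraries (-0.17, adjusted p = 0.0014), where 7194 of 14870 genes were. That fit gave each clone and treatment its own mean, so its error leaves out the spread between clones.

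Ifih1 was at 23.5, 25.5 and 26.1 CPM in untreated WT1, at 24.1, 27.3 and 25.8 CPM in WT2 and at 19.4, 19.9 and 22.6 CPM in WT3. It was at 16.2, 18.9 and 18.1 CPM in KO1 and at 19.02, 18.4 and 18.01 CPM in KO2, so the highest KO library lay just under the lowest of WT3. The log2FC was -0.40 ± 0.075 (adjusted p = 0.0011) untreated and -0.20 ± 0.056 (adjusted p = 0.015) after IFNG, where the libraries overlapped. The second call was lost in each fit without WT2 (-0.19, adjusted p = 0.061), WT3 (-0.17, adjusted p = 0.069), KO1 (-0.20, adjusted p = 0.12) or KO2 (-0.21, adjusted p = 0.059).

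Samhd1 differed the other way. In untreated cells it was at 200.0, 216.6 and 208.5 CPM in WT1, at 194.2, 196.0 and 182.8 CPM in WT2 and at 175.2, 176.5 and 187.7 CPM in WT3. It was at 265.1, 272.3 and 268.8 CPM in KO1 and at 281.2, 268.3 and 272.5 CPM in KO2. KO libraries lay above all WT libraries untreated and after IFNG, and the log2FC was 0.49 ± 0.047 (adjusted p = 3.1e-06) and 0.47 ± 0.057 (adjusted p = 2.8e-05). Each KO clone was called in each treatment, with log2FC values from 0.45 ± 0.078 in treated KO1 to 0.51 ± 0.063 in untreated KO2.

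Adar was lower by smaller amounts, with a log2FC of -0.21 ± 0.047 untreated (adjusted p = 0.0039) and -0.17 ± 0.053 after IFNG (adjusted p = 0.023). Its 6 untreated KO libraries (79.5 to 94.3 CPM) lay below all 9 WT libraries (95.3 to 112.0 CPM), with a gap of about 1 CPM. Untreated KO1 was called (-0.28 ± 0.057) and KO2 was not (-0.14 ± 0.052, adjusted p = 0.12). The untreated call was lost without KO1 and the treated one without WT2 (-0.13), WT3 (-0.16), KO1 (-0.19) or KO2 (-0.16), and without a count filter (-0.16, adjusted p = 0.081). Mavs, with a log2FC of -0.11 ± 0.038 in untreated cells (adjusted p = 0.037), overlapped between KO and WT and was no longer called without WT2 (-0.11, adjusted p = 0.091), WT3 (-0.10, adjusted p = 0.14) or KO2 (-0.072, adjusted p = 0.31). The Mavs call was also lost without a count filter (-0.10, adjusted p = 0.13) and in the fit over all 30 libraries (-0.11, adjusted p = 0.051).

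The other 4 genes, Tmem173, Mb21d1, Eif2ak2 and Trex1, were not called between KO and WT in either treatment, although each of them was called in at least 1 alternative fit. Their log2FC values ran from -0.14 ± 0.11 (Trex1) to 0.13 ± 0.051 (Eif2ak2, adjusted p = 0.074) in untreated cells and from -0.15 ± 0.097 (Mb21d1) to 0.032 ± 0.050 (Eif2ak2) after IFNG. For Tmem173 this rested on WT1, whose untreated libraries at 46.9, 49.8 and 44.1 CPM lay above the 30.4 to 32.6 CPM of WT2 and WT3, with KO libraries between them at 34.3 to 39.98 CPM. Without WT1, untreated Tmem173 (0.26, adjusted p = 0.00025) and Eif2ak2 (0.19, adjusted p = 0.0034) were called higher in KO. In that fit 6472 of 13552 genes tested were called. Mb21d1 was called higher untreated without WT2 (0.17, adjusted p = 0.016), where 2957 of 13810 genes were. After IFNG Mb21d1 was called lower without WT1 (-0.28, adjusted p = 8.2e-05), where 5992 of 13382 genes were. The fit over all 30 libraries, whose error leaves out the spread between clones, called 7143 of 14870 genes untreated and 7194 after IFNG. Among them, Eif2ak2 was higher (0.14, adjusted p = 0.0010) and Trex1 lower (-0.12, adjusted p = 0.040) in untreated KO. Mb21d1 was lower after IFNG (-0.13, adjusted p = 0.0073). Without WT2 the untreated value of Trex1 had the opposite sign (0.064, adjusted p = 0.46).

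All KO libraries lay below all WT libraries for 4 of the 10 genes untreated (Ddx58, Ifih1, Dhx58 and Adar) and for 1 after IFNG (Dhx58), where 4.82% and 4.43% of all genes did so. They lay above for 1 gene, Samhd1, in each treatment, where 3.85% and 2.97% of all genes did so. By clone, 5 of the 10 genes were called in untreated KO1 (25.7% of all genes) and 5 in untreated KO2 (11.6%). After IFNG, 2 were called in KO1 (20.9%) and 2 in KO2 (10.0%), Dhx58 and Samhd1 in each.

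**Figure D3:**
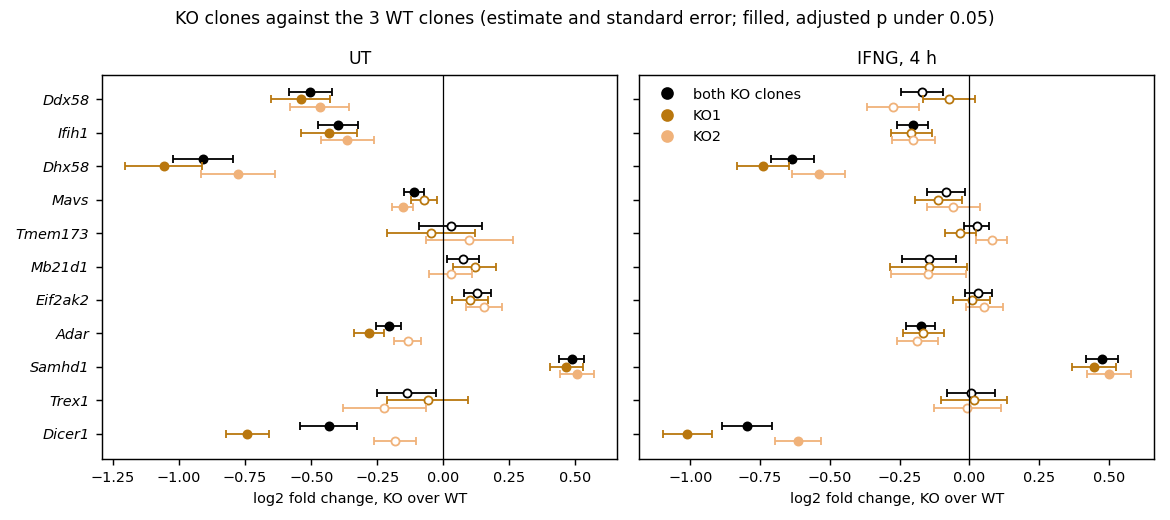
Difference in log2FC between KO and WT for the 10 genes and Dicer1, untreated (left) and after IFNG (right), for both KO clones together, KO1 and KO2, with standard errors as bars and filled points where the adjusted p was under 0.05. Dhx58 lies furthest to the left of the 10 genes and Samhd1 furthest to the right in both panels.

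To see whether a gene moved with its chromosome, each value was set beside the median log2FC of the other genes tested on the same chromosome. For Ddx58 (chromosome 4), Dhx58 (11) and Adar (3), these medians lay between -0.020 and 0.019 in both clones and treatments. For chromosome 2, which holds Ifih1, Mavs and Samhd1, they lay between 0.060 and 0.074. The genes of chromosome 17 had medians of 0.18 to 0.19 in both KO clones, and Eif2ak2, which lies on it, had values of 0.0076 to 0.15. Dicer1 lies on chromosome 12, whose other genes had a median of -0.37 in untreated KO1 and 0.00090 in untreated KO2.

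Dicer1, the gene with the deleted intronic element, was at 96.8 to 130.2 CPM (median 124.4) in untreated WT and at 132.2 to 171.3 CPM (median 156.9) after IFNG. It was at 71.1, 73.0 and 70.5 CPM in untreated KO1 and at 108.5, 103.8 and 101.3 CPM in untreated KO2, the latter within the range of WT1 (96.8 to 110.3 CPM). After IFNG it was at 80.9, 71.5 and 72.5 CPM in KO1 and at 96.9, 104.6 and 97.3 CPM in KO2, below all treated WT libraries. The log2FC of KO against WT was -0.43 ± 0.11 untreated (adjusted p = 0.0069) and -0.80 ± 0.089 after IFNG (adjusted p = 1.4e-05). With counts summed per clone these calls were lost too (-0.44, adjusted p = 0.45, and -0.79, adjusted p = 0.26). By clone, the untreated log2FC of Dicer1 was -0.74 ± 0.082 in KO1 and -0.18 ± 0.080 in KO2 (adjusted p = 0.18, not called), beside -1.06 and -0.78 for Dhx58, -0.54 and -0.47 for Ddx58, -0.43 and -0.36 for Ifih1 and 0.47 and 0.51 for Samhd1. After IFNG it was -1.01 ± 0.088 in KO1 and -0.61 ± 0.083 in KO2. The difference between the 2 KO clones was not tested.

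On the log2 scale, the response of Ddx58 to IFNG was larger in KO than in WT clones, from a lower untreated level. Mean levels went from 17.1 to 54.6 CPM in KO and from 24.1 to 61.5 CPM in WT. The interaction of genotype and treatment, fitted over all 30 libraries, was 0.32 ± 0.072 (adjusted p = 0.020) for Ddx58, the only 1 of the 10 genes called, against 1.02% of all genes tested. By clone its log2FC was 1.32 ± 0.090 in WT1, 1.31 ± 0.049 in WT2 and 1.45 ± 0.064 in WT3, and 1.83 ± 0.066 in KO1 and 1.55 ± 0.068 in KO2. Both KO clones lay above all 3 WT clones, and with the 5 clones as units the exact permutation test gave p = 0.1 (two-sided, 2 against 3 clones), the smallest it allows. The call was lost without KO1 (0.19, adjusted p = 0.66) or WT2 (0.29, adjusted p = 0.20). Outside the set, Gbp2b, the check of the treatment, had a called interaction in the same direction (0.85 ± 0.13, adjusted p = 0.00017). With libraries as replicates, Gbp2b was lower in untreated KO (-0.47 ± 0.12, adjusted p = 0.0064) and higher after IFNG (0.42 ± 0.098, adjusted p = 0.0052).

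Dhx58 had an interaction of 0.26 ± 0.084 (adjusted p = 0.17) and Ifih1 of 0.18 ± 0.083 (adjusted p = 0.47), and neither was called. Mb21d1 had the most negative value, -0.21 ± 0.066 (adjusted p = 0.15), and was called without WT1 (-0.29, adjusted p = 0.00032) and without a count filter (-0.21, adjusted p = 0.023). Without WT1, Tmem173 (-0.19, adjusted p = 0.017) and Eif2ak2 (-0.20, adjusted p = 0.037) were called as well, and without WT3 Ifih1 was (0.32, adjusted p = 0.020). Of all genes tested, 570 of 14399 were called without WT1, 73 of 14589 without WT3 and 384 of 29004 without a count filter. With all libraries the other 6 genes lay between -0.10 (Eif2ak2) and 0.13 (Trex1). Dicer1 had an interaction of -0.36 ± 0.049 (adjusted p = 5.7e-05), with a log2FC of 0.36 ± 0.062 in pooled WT and -0.0021 ± 0.14 in pooled KO.

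The response differed among the 5 clones for 5 of the 10 genes, Tmem173, Ifih1, Eif2ak2, Ddx58 and Mb21d1, where 3.68% of all genes tested were called. For Tmem173 (adjusted p = 0.00017) the log2FC was 1.35 ± 0.066 in WT1, 1.82 ± 0.049 in WT2 and 1.85 ± 0.048 in WT3, with KO1 at 1.67 ± 0.054 and KO2 at 1.63 ± 0.049. WT1 was the clone with the highest untreated level, and treated means lay within 108.8 to 120.7 CPM in all 5 clones. For Ifih1 (adjusted p = 0.0040) the response ran from 1.08 ± 0.073 in WT1 to 1.59 ± 0.061 in WT3, and for Eif2ak2 (adjusted p = 0.0052) from 1.33 ± 0.056 in WT1 to 1.74 ± 0.055 in WT3. WT1 thus had the weakest response for these 3 genes. For Mb21d1 (adjusted p = 0.019) it ran from 0.24 ± 0.055 in KO1 to 0.62 ± 0.049 in WT3. Trex1, Samhd1, Adar, Dhx58 and Mavs were not called (adjusted p = 0.24 to 0.76).

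**Figure D4:**
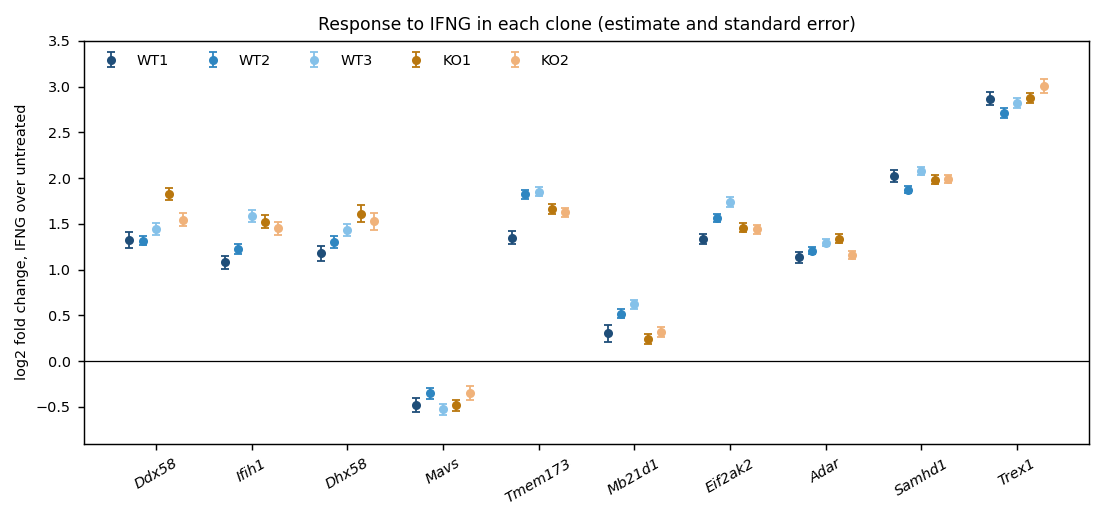
Response to IFNG as log2FC over untreated for each gene in each of the 5 clones, with standard errors as bars. Mavs lies below 0 in all clones, Trex1 lies highest, and the points of Ddx58 in KO1 and KO2 lie above those of the 3 WT clones.

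Other genes of these pathways were taken from 7 lists that leave out the 10 genes, and those named as different between KO and WT were chosen after their values were seen. Their KO differences and interactions take libraries as replicates. For these genes, neither counts summed per clone nor fits without a clone were examined. Their counts are read against the shares of all genes tested, which were 14.8% higher and 13.9% lower for the response of pooled WT, 15.8% and 14.8% for that of pooled KO, 12.2% and 14.4% for KO against WT untreated and 10.9% and 13% after IFNG. Of 21 regulators and signalling genes of the RIG-I-like receptors that were tested, 13 rose and 0 fell in pooled WT (median log2FC 0.38), and 12 rose and 0 fell in pooled KO (0.35). Nlrc5, a NOD-like receptor gene, rose by 3.94 ± 0.10 in WT, Irf7, a transcription factor that induces interferon genes, by 2.81 ± 0.15 and Usp18, which removes ISG15 from proteins, by 2.63 ± 0.15. Untreated, 5 of the 21 were lower in KO, against 14.4% of all genes, and 1 was higher, a smaller share than the 12.2% of all genes. Irf7 (-0.90 ± 0.16) and Usp18 (-1.04 ± 0.19) were among those lower, together with Irf3 (-0.25 ± 0.057), Cyld and Zc3hav1, and Trim25, a ubiquitin ligase for RIG-I, was higher (0.33 ± 0.088).

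The 2'-5'-oligoadenylate synthetases are activated by double-stranded RNA and make a messenger that leads to RNA cleavage. Of 10 genes of this pathway, 9 rose in pooled WT and 8 in pooled KO, and none fell (median log2FC 1.09 and 1.12). Oasl2 rose by 3.60 ± 0.11 in WT, Oas2 by 2.07 ± 0.17 and Oas1b by 1.62 ± 0.13. In KO against WT, 5 of the 10 were lower and 0 higher in each treatment, among them Oas1a, Oas1c, Oas1g and Oas3, with Oas3 at -0.63 ± 0.066 untreated and -0.44 ± 0.051 after IFNG. The Oas1 genes are close paralogs, and only uniquely aligned fragments were counted. Fragments that fit several of them equally well are therefore missing from these values.

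Among 18 regulators of cGAS and STING, 4 rose and 1 fell in pooled WT (median -0.028), and Zbp1, a sensor of Z-form nucleic acids, had the largest log2FC at 4.62 ± 0.89, from 0.452 to 12.5 CPM. Usp18 is on this list as well, and Ifi35 rose by 0.78 ± 0.051. In KO, 5 rose and 2 fell (median -0.034). The interaction was called for Lrrc8c (0.26 ± 0.062), a subunit of a channel that passes cyclic dinucleotides. In untreated KO, 2 of the 18 were lower, Hmgb1 and Usp18, and 0 higher, neither share above the 14.4% and 12.2% of all genes.

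Of 13 genes for eIF2 alpha kinases and the stress response that follows them, 2 rose and 2 fell in pooled WT (median 0.056) and 4 rose and 2 fell in pooled KO (0.029). The WT counts are close to the 14.8% and 13.9% of all genes and are no result about this list. Atf3 rose by 1.35 ± 0.20 in WT, Eif2ak3, the PERK kinase gene, fell by 0.45 ± 0.045 on the log2 scale, and Ddit3, the CHOP gene, which shares reads with an overlapping gene of the same name, fell by 0.48 ± 0.13. Eif2ak3 was also lower in KO in both treatments (-0.22 ± 0.052 and -0.21 ± 0.047). Of 17 genes of nucleic acid turnover and editing, 3 rose and 3 fell in pooled WT (median 0.062) and 5 rose and 3 fell in pooled KO (-0.027), where the WT counts are again near the shares of all genes. The cytidine deaminase gene Apobec1 fell by 0.98 ± 0.079 in WT, while Pnpt1 (0.72 ± 0.060) and Apobec3 (0.49 ± 0.041) rose. In untreated KO, 6 of the 17 were higher and 2 lower, among them the lysosomal nuclease genes Dnase2a (0.23 ± 0.039), Pld3 (0.19 ± 0.059) and Pld4 (0.29 ± 0.087). After IFNG, 2 of the 17 were higher (Dnase2a and Pld4) and 1 lower, beside 10.9% and 13% of all genes. Pld3 was then not called (0.15 ± 0.070, adjusted p = 0.13).

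Of 9 endosomal nucleic acid receptors and their partners, 3 rose and 2 fell in both WT (median -0.010) and KO (-0.0059). Tlr3, a receptor for double-stranded RNA, rose by 2.20 ± 0.15 in WT and was lower in KO untreated (-0.45 ± 0.099) and after IFNG (-0.56 ± 0.15). Tlr13, a receptor for bacterial ribosomal RNA, fell by 1.06 ± 0.18 in WT, was higher in KO in both treatments (0.42 ± 0.070 and 0.85 ± 0.20) and had an interaction of 0.49 ± 0.12. Myd88, the adaptor of most Toll-like receptors, rose by 1.36 ± 0.051 in WT with an interaction of -0.24 ± 0.055.

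Type I interferon itself was hardly detected. Ifnb1 had a count in 1 of 30 libraries (0.050 CPM), and Ifna1, Ifna2, Ifna4 and Ifna5 had none. The 5 genes on this list that were tested had a median log2FC of 0.98 in WT and 1.35 in KO. Of these, 3 rose, among them Stat2 and Irf9, and Ifnar1, a subunit of the interferon receptor, fell in WT and in KO. Stat2 rose by 2.71 ± 0.068 in WT and 2.92 ± 0.082 in KO. STAT2 and IRF9 belong to the complex that binds the ISRE, and in untreated KO 3 genes of the list were lower than in WT, with log2FC values of -0.44 ± 0.076 for Stat2 and -0.50 ± 0.10 for Irf9. Ifnar1 was higher (0.31 ± 0.040). Irf9 also had a called interaction (0.35 ± 0.070, adjusted p = 0.0068), in the same direction as Ddx58. After IFNG, Irf9 (-0.13 ± 0.061, adjusted p = 0.13) was not called between KO and WT, Stat2 was lower (-0.23 ± 0.072), and Ifnar1 was higher (0.45 ± 0.090).

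The genes whose level followed each of the 10 most closely over the 10 groups of clone and treatment were found by Pearson's r of the mean log2(CPM + 0.5), given as a description because the groups share clones and the treatment sets most of the variation. Ddx58 was nearest to Ifit2 (r = 0.995) and Cmpk2 (0.993), Ifih1 to Ifi44l (0.998) and Irf7 (0.994), and Adar to Trim34b (0.999) and Parp12 (0.998). Dhx58 was nearest to Il18 (0.986) and Creb5 (0.984). Mavs was nearest to Steap3 (0.991) and Dact3 (0.989), Tmem173 to Arid5b and B4galt3 (both 0.997), and Eif2ak2 to Usb1 (0.996) and Gbp11 (0.995). Samhd1 was nearest to Fam49b and Rnf114 (both 0.993), Mb21d1 to Clcc1 (0.971) and Pik3ip1 (0.961), and Trex1 to Atrip (0.999), with which it shares its exons, and Cxcl10 (0.995). Among the 10 genes themselves Ifih1 was nearest to Ddx58 and to Adar (both 0.991), and Mavs had negative values with each of the other 9, from -0.98 with Samhd1 to -0.71 with Mb21d1.

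The genes are annotated as follows in mm10, and each value covers fragments over their exons. Ddx58 lies on chr4:40203773-40239828 (minus strand, 7050 exon bases), Ifih1 on chr2:62595798-62646255 (minus, 8165), Dhx58 on chr11:100694884-100704271 (minus, 3272) and Mavs on chr2:131234063-131248025 (plus, 3345). Tmem173 lies on chr18:35733678-35740554 (minus, 2302) and Mb21d1, named Cgas in current annotation, on chr9:78430526-78443237 (minus, 4126). Eif2ak2 lies on chr17:78852564-78882573 (minus, 5113), Adar on chr3:89715022-89753446 (plus, 8118), Samhd1 on chr2:157097533-157135265 (minus, 9150) and Trex1 on chr9:109057933-109059734 (minus, 1147). Exons overlap genes on the opposite strand by 141 bases in Dhx58, 201 in Mb21d1, 174 and 47 in Eif2ak2 and 1365 in Adar (Chrnb2), and the counting was stranded.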

How the data were processed

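RNA-seq was done on 30 libraries of 5 J774A.1 clones. Per the file headers and the study's methods, the authors used BBDuk for trimming, HISAT2 2.1.0 for alignment to mm10, SAMtools 1.10 for merging technical replicates and featureCounts 1.6.2 for stranded counting of uniquely aligned fragments, with a fragment counted for every gene it overlaps. The header names Gencode vM18 and the methods RefSeq. The deposited values are raw fragment counts, and the 13 tables that repeat subsets of these libraries were not used. The deposited exon length of each gene served for CPM per kb. Column names carry no replicate numbers, so library numbers only name columns, and the columns of WT2 and WT3 were identified through the tables deposited for single clones. The labels mention different RNA inputs and adapters without assigning them, so this batch could not be checked.

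Counts were tested with edgeR 4.0.16 in R 4.3.3 (filterByExpr, TMM, quasi-likelihood test, Benjamini-Hochberg adjusted p under 0.05 over all genes tested), on the libraries of each comparison. The model of the interaction held clone, treatment and treatment by genotype over all 30 libraries, and the difference in response among clones with clone by treatment. The standard error is the log2 fold change divided by the square root of F. CPM used TMM factors from 14870 genes. Alternatives were DESeq2 1.42.0, RLE size factors, no count filter or at least 10 counts in every library, counts summed per clone, a block for clone, 1 fit over all libraries, and leaving out each clone or, chosen after seeing the data, each library. The fit over all libraries held a mean for each clone and treatment, so its tests of KO against WT leave out the spread between clones. The fit of the response of a single clone was tested on counts simulated from the WT1 libraries. The simulation held no variation between clones, so it does not cover the comparisons of KO and WT. Figures were drawn with matplotlib 3.10.9.

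The members and lists were chosen with earlier results of these data known. All 10 genes are named, with Dicer1, Gbp2b, the 3 genes of each list with the largest change in pooled WT and the 2 with the largest called interaction, each averaging 1 CPM or more in a clone and treatment, and the 2 genes nearest to each member. A few genes that these rules name are not reported here.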

Additional observations from a re-analysis of the deposited data

Results flagged for a closer look

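In 44 groups of 6 or 9 libraries, the highest or lowest library stood apart by Dixon's criterion in 2, and chance alone marks about 1 in 20 groups. These were untreated KO1 library 1 for Ifih1, at 16.2 CPM against 18.01 to 19.02 CPM in the other 5 KO libraries, and treated WT1 library 3 for Dhx58, at 47.2 CPM against 33.6 to 39.7 CPM in the other 8 WT libraries.

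With libraries as replicates, the interaction of genotype and treatment was called for Ddx58, at 0.32 on the log2 scale, and for Dicer1, at -0.36. With the 5 clones as units, the exact permutation test gave p = 0.1 for each, the smallest it allows. The Ddx58 call was lost without KO1 or WT2. Among the 5 clones the response differed for Ddx58 (adjusted p = 0.00998), Ifih1 (adjusted p = 0.00401), Tmem173 (adjusted p = 0.000166), Mb21d1 (adjusted p = 0.0189), Eif2ak2 (adjusted p = 0.00519) and Dicer1 (adjusted p = 5.89e-05), each by edgeR's test of the 4 interaction coefficients together.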

How the results depend on the processing

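Of 528 recomputed values for 55 single results, 463 kept their direction and their side of the threshold, 30 lost a call, 14 gained one and 21 changed sign. All 10 genes stayed called in the pooled responses and in each clone under every alternative run, except that Mb21d1 in WT1 was lost in 4 fits without 1 library, so that leaving out a library gave 9 to 10 called genes in WT1 and 10 in the others. With counts summed per clone, 0 of the 10 genes were called between KO and WT in either treatment, nor was Dicer1. The fit over all libraries, whose error leaves out the spread between clones, called 7143 genes of all between untreated KO and WT in place of 3689. After IFNG that fit called 7194 in place of 3258. The WT response had 6190 called genes with clone as a block and 6571 in that fit, in place of 3840. Without a count filter the interaction called 384 genes of all in place of 150, and the difference among clones 919 in place of 547. Over all genes tested, leaving out WT1 gave 6472 calls of 13552 between untreated KO and WT and 5992 of 13382 after IFNG. Leaving out KO1 gave 1674 of 14441 and 1411 of 14042. Without WT1 the calls were 7053 of 13818 in place of 3658 for untreated KO1 and 6291 of 13538 in place of 2934 for treated KO1. For KO2 they were 5625 of 13842 in place of 1674 untreated and 4994 of 13515 in place of 1411 treated (851 of 13967 without WT2). The interaction had 570 of 14399 without WT1, 35 of 14673 without WT2, 73 of 14589 without WT3 and 21 of 14661 without KO1. Leaving out a clone gave 5 to 8 members called untreated and 2 to 6 after IFNG, 5 to 7 for untreated KO1, 2 to 5 for treated KO1 (5 without WT1), 3 to 8 for untreated KO2 (8 without WT1, 3 without WT2), 2 to 7 for treated KO2 (7 without WT1) and 0 to 4 for the interaction (4 without WT1, 2 without WT3, 0 without WT2 or KO1). Without a count filter, 3 were called in untreated KO2 and 2 for the interaction. The Dicer1 response of pooled KO was 0.00042 with 10 counts in every library, 0.0083 with clone as a block and 0.00050 in the fit over all libraries. Leaving out a clone gave -0.070 to 0.10 for that response. Between untreated KO and WT it gave -0.072 to 0.26 for Tmem173 and -0.24 to 0.064 for Trex1, and after IFNG -0.032 to 0.080 for Tmem173, -0.018 to 0.056 for Eif2ak2 and -0.090 to 0.14 for Trex1. For the interaction it gave -0.054 to 0.10 for Mavs, -0.19 to 0.067 for Tmem173, -0.050 to 0.10 for Adar and -0.080 to 0.023 for Samhd1. The cause of these changes was not tested.

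No paired analysis was possible because the columns of the count table carry no replicate numbers, so the replicate block and leaving out a replicate number were not run. With 15566122 to 37992642 fragments per library, the least abundant gene of the set still had 162 fragments.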
